A study of Sus scrofa with 23 samples.

Results

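UCHL1 and MBP were followed in the Longissimus, the long muscle of the back, of 23 pigs from lines with low or high residual feed intake (RFI). They are the members with probes among 4 genes named as nerve and Schwann cell genes. A probe was taken where the array's annotation gave the gene symbol as its name or in its description, which gave 2 probes of UCHL1 and 8 of MBP among 43603 non-control probes, or 2 of 4210 named genes with a probe above the filter on dim signal. PMP22 and S100B were not analysed here. The genes were chosen with their levels on these arrays already known, so the differences between groups are given as a description, without a test.

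RFI is feed eaten beyond, or short of, what is predicted from an animal's growth and maintenance. The groups were 7 low-RFI pigs (RFIneg) fed freely, 8 high-RFI pigs (RFIplR) held to the feed level of the low line, and 8 high-RFI pigs (RFIpl) fed freely. All were sampled at 115 kg body weight, and the labels gave no sex, litter or age. Total RNA of each pig was labelled with Cy3, a green fluorescent dye, and hybridised to 1 Agilent single-colour array. Every level below is a probe's log2 signal relative to the 75th percentile of its own array, so a level of 0 is that percentile and a difference of 1 is a doubling. Levels of different probes were not set against each other. The arrays lay on 6 slides and were scanned on 2 days.

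UCHL1 encodes ubiquitin C-terminal hydrolase L1, an enzyme that cuts ubiquitin from small adducts and is among the most abundant proteins of neurons. MBP encodes myelin basic protein, which binds the inner faces of the myelin membrane together and is made by Schwann cells in peripheral nerve. Motor axons with their Schwann cells run through skeletal muscle to the neuromuscular junctions, so a muscle sample can hold nerve RNA. Which cells gave the UCHL1 and MBP signal was not tested.

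Each probe was a 60-base oligonucleotide, placed here by its first base in the transcript as the array's annotation gives it. The probe nearest the start of each transcript is shown, since it is the MBP one that departed from the other MBP probes. Sequences run 5′ to 3′ as deposited.
UCHL1 probe at position 505: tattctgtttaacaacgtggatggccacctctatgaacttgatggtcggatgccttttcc
MBP probe at position 303: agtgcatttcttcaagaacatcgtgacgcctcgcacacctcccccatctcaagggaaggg
The longest run of bases shared by this pair was 6. The other UCHL1 probe lay at position 935, and the other 7 MBP probes lay between positions 1237 and 1790. Among these, the probes at 1540 and 1550 shared 41 bases and those at 1785 and 1790 shared 39, so they are not independent measurements of the transcript. All 10 probes were well above background on 23 of 23 arrays, and none had a saturated or outlying spot.

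UCHL1 was lowest in low-RFI muscle and highest in restricted high-RFI muscle, with freely fed high-RFI muscle between them, by both of its probes. At position 935 the lowest, median and highest levels were 2.28, 2.91 and 3.42 in low-RFI pigs. In restricted high-RFI pigs they were 3.35, 4.03 and 4.42, and in high-RFI pigs 2.80, 3.59 and 4.07. Of the 7 low-RFI pigs 6 lay below every restricted pig, and the groups overlapped through a single low-RFI pig at 3.42 and a single restricted pig at 3.35. The high-RFI group ran from 2.80 to 4.07 and overlapped both other groups, with 3 pigs near 3 and 5 above 3.5.

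The probe at position 935 averaged 2.85 ± 0.44 in low-RFI pigs, 3.92 ± 0.36 in restricted pigs and 3.47 ± 0.48 in high-RFI pigs (SD, n = 7, 8 and 8). The difference of low-RFI minus restricted pigs was -1.07 (SE 0.21), a level lower by 2.1-fold, against a pooled SD of 0.40. A low-RFI pig was lower in 55 of the 56 pairs of pigs. UCHL1 was also lower in low-RFI than in freely fed high-RFI pigs, by -0.62 (SE 0.21), in 46 of 56 pairs. Restricted pigs stood above freely fed high-RFI pigs by 0.45 (SE 0.21) in 50 of 64 pairs, close to the pooled SD of 0.42, so these neighbours in the order barely differed beyond their spread. The last pair of comparisons share the high-RFI pigs.

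**Figure D1:**
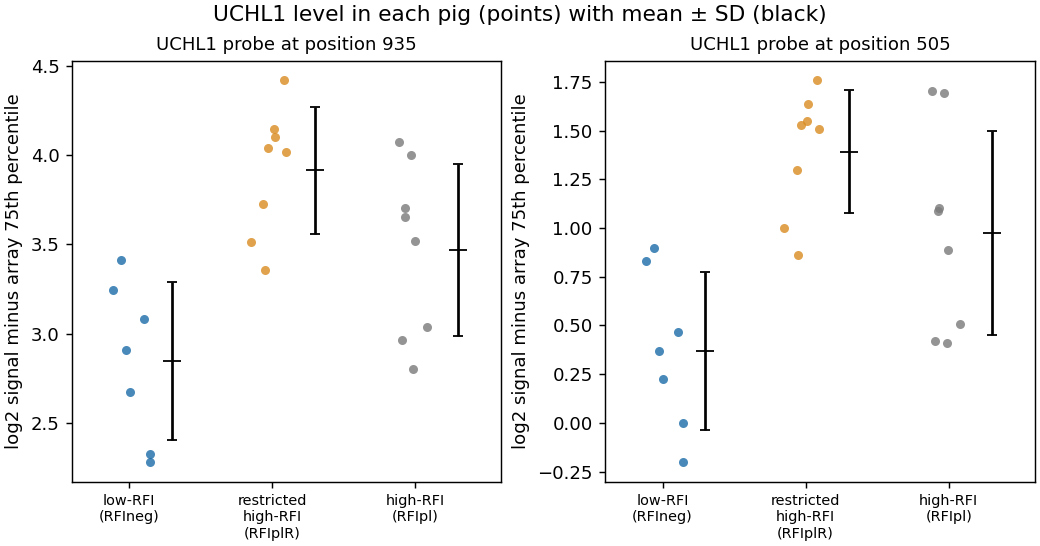
UCHL1 level (log2 signal relative to the 75th percentile of the array, vertical axis) in each pig by group, at probe positions 935 and 505, with the mean ± SD in black. In both panels 6 of 7 low-RFI pigs lie below all 8 restricted pigs, and the 8 high-RFI pigs overlap both groups.

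The second UCHL1 probe, at position 505, gave nearly the same picture from another stretch of the transcript. Its level was 0.37 ± 0.41 in low-RFI pigs, 1.39 ± 0.32 in restricted pigs and 0.98 ± 0.52 in high-RFI pigs (SD, n = 7, 8 and 8). The differences were -1.02 (SE 0.21) for low-RFI minus restricted, -0.61 (SE 0.21) for low-RFI minus high-RFI and 0.42 (SE 0.20) for restricted minus high-RFI pigs. With the group means subtracted, both UCHL1 probes varied together from pig to pig, with r = 0.97 over 23 pigs.

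Low-RFI minus restricted was also the comparison in which both UCHL1 probes passed the limma threshold of adjusted p 0.05, as 2 of 45 probes called among 27799 tested (0.162%). Since this contrast helped to choose the gene, nothing is read from that count. In low-RFI minus high-RFI 34 of 27799 probes were called (0.122%) and in restricted minus high-RFI 1 was (0.0036%), in each case with 0 of the 10 UCHL1 and MBP probes. Probes under an unadjusted p of 0.05 numbered 2830, 3086 and 2713 in the same order of comparisons.

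Across the slides, low-RFI pigs had less UCHL1 than restricted pigs on 6 of 6, by -0.46 to -1.96 at position 935. The difference was -0.70 within the first scan day and -1.52 within the second. Low-RFI minus high-RFI was negative on 5 of 6 slides, and restricted minus high-RFI positive on 4 of 6. The call stood near its threshold: both probes kept it under 5 of 16 other settings and in 9 of 23 fits that left out a pig, and neither did under 8 settings and in 11 such fits. Under normexp background correction the difference at position 935 shrank to -0.39 (SE 0.45), and restricted minus high-RFI turned to -0.36 (SE 0.44).

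MBP did not follow UCHL1. By all 8 of its probes the mean was higher in low-RFI muscle than in both high-RFI groups, by 0.38 to 0.53 for 7 of them and by 0.06 to 0.13 for the probe at position 303, and none was called. At position 1785, the brightest MBP probe, the lowest, median and highest levels were 1.81, 2.13 and 2.87 in low-RFI pigs. They were 0.76, 1.63 and 2.43 in restricted pigs and 1.09, 1.85 and 2.58 in high-RFI pigs. A single low-RFI pig stood above all others, the low-RFI group reached less far down, and the groups otherwise overlapped. The array of that pig, on slide 3, had the smallest share of probes well above background of all arrays (41.7%).

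Means at position 1785 were 2.19 ± 0.35 in low-RFI, 1.68 ± 0.55 in restricted and 1.77 ± 0.50 in high-RFI pigs (SD, n = 7, 8 and 8). The difference of low-RFI minus restricted pigs was 0.51 (SE 0.24) with a pooled SD of 0.47, and that of low-RFI minus high-RFI pigs was 0.42 (SE 0.24) with a pooled SD of 0.43. Restricted minus high-RFI was -0.09 (SE 0.23), well inside the pooled SD of 0.52. Under normexp background correction these differences were 0.79 (SE 0.34), 0.24 (SE 0.34) and -0.55 (SE 0.33) in the same order, and at position 1237 low-RFI minus restricted was 0.16. Over the 7 probes from position 1237 to 1790, low-RFI minus restricted ran from 0.43 to 0.53, low-RFI minus high-RFI from 0.38 to 0.45, and restricted minus high-RFI from -0.10 to -0.01. Low-RFI pigs were above high-RFI pigs on 6 of 6 slides by each of the 7 probes, and above restricted pigs on 5 of 6. Within scan days low-RFI minus restricted was 0.60 and 0.39 at position 1785, and low-RFI minus high-RFI was 0.36 and 0.44.

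**Figure D2:**
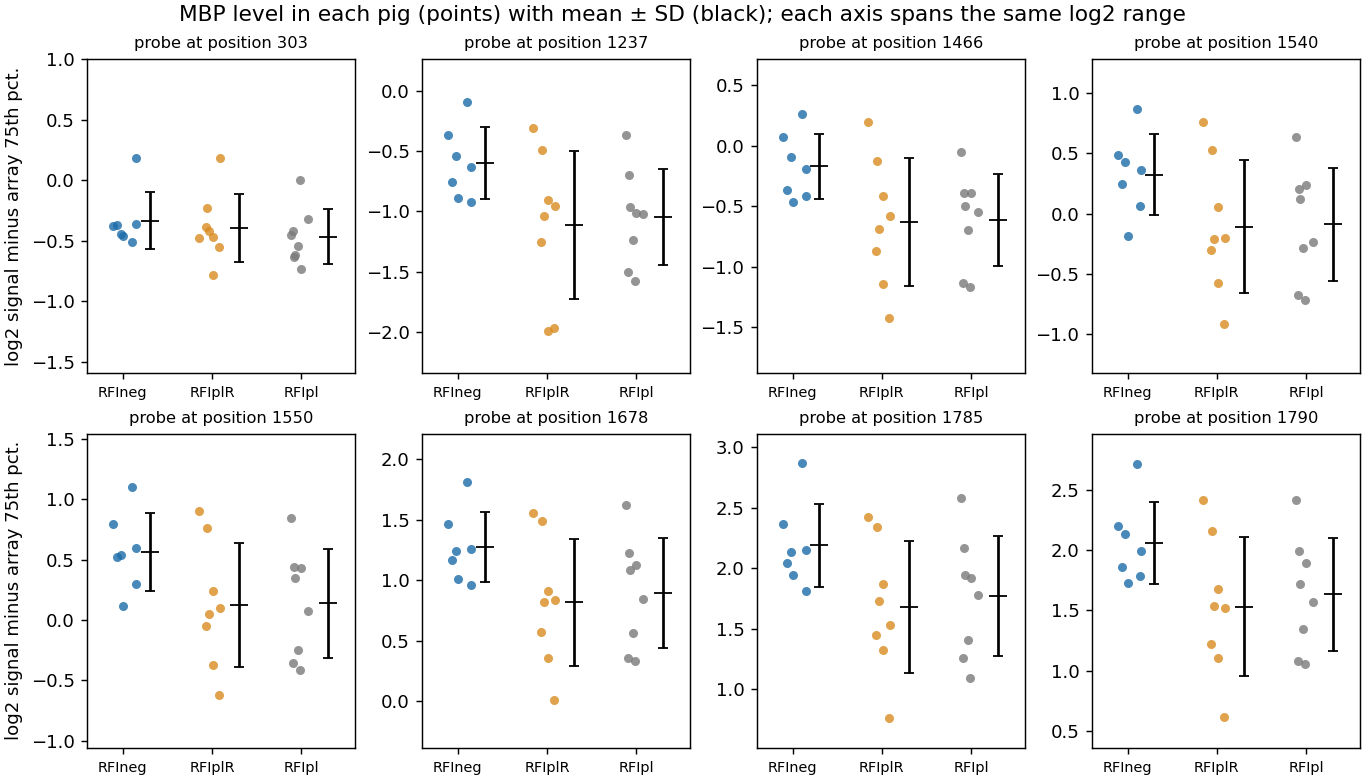
MBP level (log2 signal relative to the 75th percentile of the array, vertical axis) in each pig by group for the 8 probes, with the mean ± SD in black and every axis spanning the same log2 range. The low-RFI mean is highest in all 8 panels, by 0.38 to 0.53 in 7 of them, while at position 303 the group means lie between -0.47 and -0.33.

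The probe at position 303 differed less between groups. Its level was -0.33 ± 0.24 in low-RFI, -0.39 ± 0.28 in restricted and -0.47 ± 0.23 in high-RFI pigs (SD, n = 7, 8 and 8), with differences of 0.06 and 0.13 for low-RFI minus each, inside the SDs. It also varied between pigs in another way. The 7 other MBP probes correlated with each other at r = 0.94 to 0.99 and Spearman's rho = 0.92 to 0.99 over 23 pigs with group means subtracted (21 of 21 pairs, each with permutation p = 1e-05, the smallest that 100000 permutations can give, adjusted p = 2.05e-05). The probe at 303 correlated with them at r = -0.28 to -0.14 (rho = -0.31 to -0.17, adjusted permutation p = 0.42 to 0.84 for r). The p-values were adjusted over the 45 pairs of the 10 probes, and within the first scan day these correlations were -0.02 to 0.09, within the second -0.39 to -0.23.

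**Figure D3:**
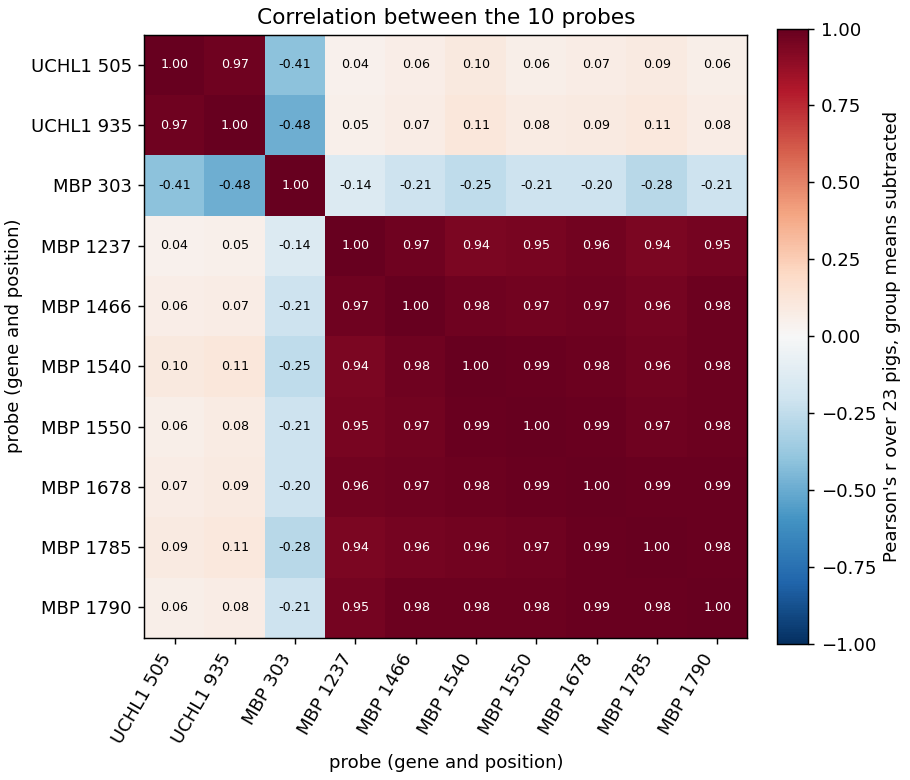
Pearson's r between the 10 probes over 23 pigs after group means were subtracted, with UCHL1 505 and 935 first and MBP probes in order of position on both axes (colour from -1 to 1). The UCHL1 pair at 0.97 and the block of 7 MBP probes at 0.94 to 0.99 stand apart from each other and from MBP 303.

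Within groups, the probe at 303 varied mostly between slides. Slide took 82.4% of its variance within groups, against 27.4% to 33.3% for the other MBP probes and 16.1% to 16.4% for UCHL1. The median over 27326 probes without a missing value was 32.2%, and 3.71% of them had a larger share than the probe at 303. Its level averaged 0.13 on the 3 arrays of slide 5, one from each group, and between -0.58 and -0.40 on the other slides. The low-RFI, restricted and high-RFI pigs on slide 5 had 0.19, 0.19 and 0.00, each the highest of its group. Averaged over the 3 arrays of that slide, the other MBP probes and UCHL1 were below their group means. This did not hold for each pig: the restricted pig had UCHL1 at 4.02 at position 935, against a group mean of 3.92. With slide means subtracted too, the probe at 303 correlated with the other MBP probes at r = -0.02 to 0.10. Without slide 5 these r were -0.03 to 0.05, so it still did not vary with them. The cause was not tested.

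**Figure D4:**
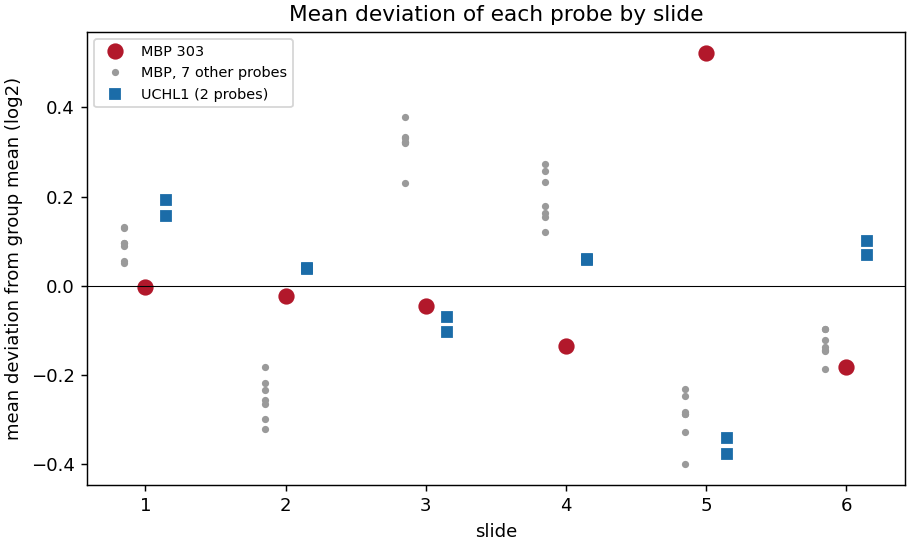
Mean deviation of each probe from its group means (log2, vertical axis) on each of the 6 slides, for MBP 303, the 7 other MBP probes and both UCHL1 probes. MBP 303 stands at 0.52 on slide 5 and at or below 0 on the other slides.

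Whether pigs with more UCHL1 also had more MBP than others of their group depended on the background correction. Between UCHL1 at position 935 and MBP at position 1785, r was 0.71 under normexp (permutation p = 0.00123) and 0.55 under normexp on negative controls (permutation p = 0.049). On the levels reported here, no relation passed the test: between the 2 UCHL1 probes and the 7 MBP probes, r ran from 0.04 to 0.11 over 23 pigs and rho from 0.09 to 0.23 (14 pairs, adjusted permutation p = 0.84 to 0.85 for r and 0.45 to 0.69 for rho). Leaving out the 2 pigs farthest from the median of UCHL1 gave r from -0.12 to -0.05. The sign differed between scan days, at 0.16 to 0.33 in the first and -0.24 to -0.10 in the second.

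With the MBP probe at 303, UCHL1 at position 935 had r = -0.48 and rho = -0.49 (adjusted permutation p = 0.043 and 0.052, unadjusted 0.022 and 0.026). UCHL1 at 505 had r = -0.41 and rho = -0.38 (adjusted permutation p = 0.11 and 0.17). The 45 pairs adjusted over hold the UCHL1 pair and 21 pairs of MBP probes, all at the smallest p. Their place in the adjustment lowered the adjusted p of the rest, so no relation is read from 0.043. Without the 2 pigs farthest in UCHL1 the r of -0.48 and -0.41 became -0.26 and -0.18, so both rest in part on those pigs. The same r were -0.43 and -0.33 after slide means were subtracted too, and -0.44 and -0.32 without slide 5.

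Whether the label of nerve and Schwann cell genes fits was checked with lists of other such genes. Of 29 Schwann cell and myelin genes 10 had a probe and 2 passed the filter on dim probes, among them SOX10, a transcription factor of the Schwann cell lineage. GFAP and CDH19, markers of Schwann cells without compact myelin and of their precursors, were well above background on 0 of 23 arrays. The mean level of the 2 genes ranged from -3.65 to -2.47 in low-RFI, from -3.22 to -2.39 in restricted and from -3.15 to -2.64 in high-RFI pigs, and its ranges overlapped throughout. Of 29 axon and neuron genes 8 had a probe and 6 passed the filter, with a mean level from -3.73 to -2.68, from -3.71 to -2.60 and from -3.61 to -2.80 in the same groups. The Schwann cell and myelin list was too short for a correlation with UCHL1 or MBP, which took lists of 3 genes or more. With so few genes measured, and those dim, the lists cannot decide whether the label fits. UCHL1 and MBP are therefore described as single genes.

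No gene of the nerve lists was called in the group comparisons. In low-RFI minus restricted pigs, 0 of 2 Schwann cell and myelin genes, 0 of 6 axon and neuron genes, 0 of 3 neuromuscular junction genes and 0 of 7 denervation response genes were called by limma. Their median differences were -0.16, 0.02, 0.43 and -0.27, beside 0.01 over all 4210 named genes, of which 7 were called (0.166%). In low-RFI minus high-RFI and in restricted minus high-RFI pigs limma called 0 genes of these lists too, where 3 (0.0713%) and 0 (0%) of the 4210 genes were called. At an unadjusted limma p under 0.05 these lists and the 3 family lists, 27 genes in all, held 3 genes in low-RFI minus restricted, 1 in low-RFI minus high-RFI and 2 in restricted minus high-RFI pigs. Over the 4210 genes 438, 521 and 448 reached it. The axon and neuron gene in both counts with restricted pigs was MAP2, which passed the filter only through the low-RFI group. MAP2 also counts among the 6 axon and neuron genes and enters their median, so nothing is read from it there.

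Of the neuromuscular junction genes, NES, which encodes the intermediate filament nestin that is kept at the neuromuscular junction of adult muscle, averaged 1.97 ± 0.39 in low-RFI (n = 7), 1.05 ± 0.71 in restricted (n = 7, 1 value missing) and 2.08 ± 0.51 in high-RFI pigs (SD, n = 8). Its difference was 0.93 (SE 0.28, limma adjusted p = 0.23) for low-RFI minus restricted and -1.04 (SE 0.27, limma adjusted p = 0.14) for restricted minus high-RFI pigs. MAP2, a microtubule protein of neurons, had a probe well above background on 6 of 7 low-RFI, 5 of 8 restricted and 5 of 8 high-RFI arrays, so it passed the filter only through the low-RFI group and its difference is not described. CHRNA1, the alpha subunit of the muscle acetylcholine receptor, and SNTB1, a syntrophin of the junction, differed by 0.43 (SE 0.26) and 0.19 (SE 0.22) in low-RFI minus restricted pigs. STMN2, a stathmin of growing axons, differed by -0.12 (SE 0.19) there.

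SOX10 was at -0.03 (SE 0.21) in low-RFI minus restricted pigs, far from the threshold (limma adjusted p = 0.98). Among the 7 denervation response genes 2 were higher and 5 lower in that comparison. CHRNA1, which is on this list too, was higher at 0.43 (SE 0.26). CDKN1A, a cell cycle inhibitor, was at -0.33 (SE 0.19) and CSRP3, a muscle LIM protein, at -0.34 (SE 0.40). CSRP3 was also at -0.74 (SE 0.40, limma adjusted p = 0.51) in low-RFI minus high-RFI pigs. None of these genes was called where UCHL1 was low.

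The relatives of UCHL1 differed little between groups. UCHL3, another small ubiquitin hydrolase, averaged 4.70 ± 0.16, 4.75 ± 0.17 and 4.58 ± 0.19 in low-RFI, restricted and high-RFI pigs (SD, n = 7, 8 and 8). UCHL5, the ubiquitin hydrolase that docks on the proteasome, averaged 4.10 ± 0.15, 4.19 ± 0.21 and 4.03 ± 0.18 in the same order. Low-RFI minus restricted was -0.05 (SE 0.10) for UCHL3 and -0.09 (SE 0.10) for UCHL5, with 0 of 2 called (limma adjusted p = 0.92 and 0.84). Over all 4210 named genes 7 were called there (0.166%).

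In the families of the members not analysed here, EMP1, a membrane protein related to PMP22, was low in low-RFI pigs. It averaged 1.22 ± 0.62 in low-RFI, 2.03 ± 0.56 in restricted and 2.03 ± 0.38 in high-RFI pigs (SD, n = 7, 8 and 8), with differences of -0.82 (SE 0.26, limma adjusted p = 0.26) and -0.81 (SE 0.26, limma adjusted p = 0.23) for low-RFI minus each. Of 7 calcium-binding S100 family genes 0 were called in any comparison. Of all 4210 named genes 3, 7 and 0 were called in low-RFI minus high-RFI, low-RFI minus restricted and restricted minus high-RFI pigs. S100A6 was at -0.36 (SE 0.18) and S100A16 at 0.23 (SE 0.14) in low-RFI minus high-RFI pigs, and S100A14 at 0.42 (SE 0.22) in low-RFI minus restricted pigs.

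**Figure D5:**
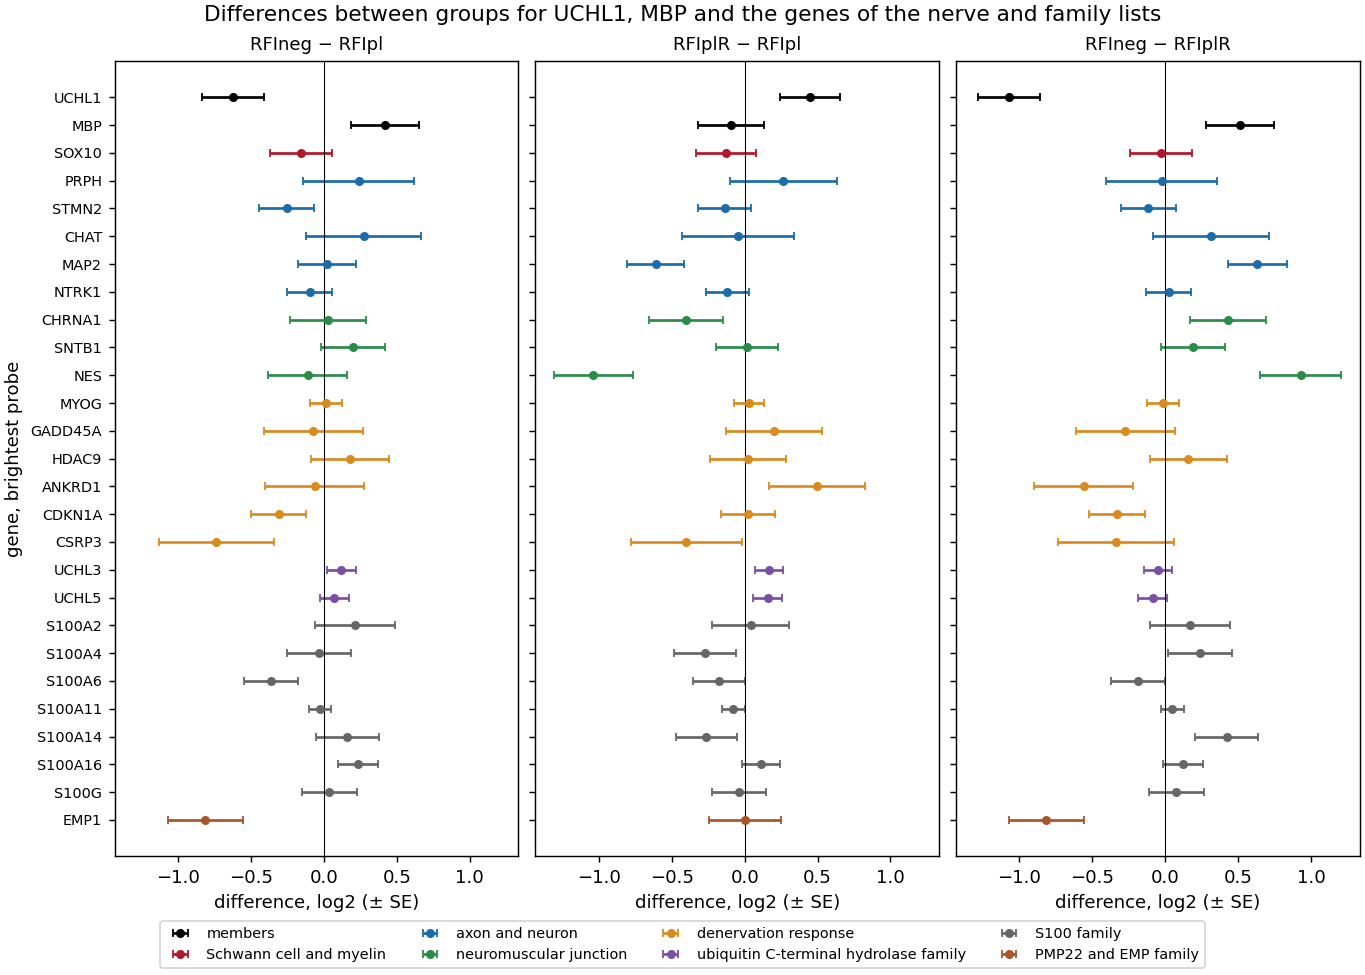
Difference between groups (log2, horizontal axis, ± SE) for the brightest probe of UCHL1, MBP and the genes of the nerve and family lists reported here, one panel for each comparison, with colours by list. UCHL1 stands at -0.62, 0.45 and -1.07 and MBP at 0.42, -0.09 and 0.51, while SOX10 of the Schwann cell list lies between -0.16 and -0.03.

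Markers of other cells in muscle were set beside both genes. With group means subtracted, UCHL1 had r between -0.18 and 0.17 over 23 pigs with the mean level of each of 10 lists (axon, neuromuscular junction, denervation, S100, adipocyte, fibroblast, endothelial, leukocyte, slow fibre and skeletal muscle). MBP had r = -0.51 (rho = -0.37) with the S100 family, 0.41 (rho = 0.37) with skeletal muscle markers and 0.35 (rho = 0.39) with neuromuscular junction genes, and between -0.31 and 0.13 with the others. Over these 20 relations the smallest adjusted permutation p was 0.25 for r and 0.75 for rho, so none held up. Within scan days the MBP and S100 values were -0.58 and -0.47, and -0.59 without the 2 farthest pigs.

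Between groups, all 11 adipocyte markers were lower in low-RFI than in high-RFI pigs, with a median difference of -0.44 and 0 called. Of all 4210 named genes 1831 were lower there and 3 were called. FABP4, the fatty acid carrier of adipocytes, differed by -0.53 (SE 0.32) in low-RFI minus high-RFI and by -0.35 (SE 0.32) in low-RFI minus restricted pigs, and CD36, a fatty acid transporter, differed by -0.09 (SE 0.13) in low-RFI minus high-RFI pigs. The mean adipocyte level ranged from 0.64 to 1.68 in low-RFI, from 0.74 to 2.1 in restricted and from 0.41 to 2.58 in high-RFI pigs. The part of these cells in the levels of UCHL1 and MBP was not tested. All 9 skeletal muscle markers were higher in low-RFI than in both other groups, by medians of 0.17 against high-RFI and 0.10 against restricted pigs and with 0 called. Among them were ACTA1, skeletal actin, at 0.15 (SE 0.08) and TNNC2, fast troponin C, at 0.16 (SE 0.08) in low-RFI minus high-RFI pigs. Over all 4210 named genes 56.5% and 53.4% were higher in these comparisons, with medians of 0.03 and 0.01. Genes of a list share the arrays, so their directions are not independent of each other. In such bulk samples, fewer cells of a type and less RNA per cell cannot be told apart.

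The remaining lists gave 0 limma calls in each comparison. Over all lists 8 of 80 genes in low-RFI minus high-RFI, 8 in low-RFI minus restricted and 6 in restricted minus high-RFI pigs had an unadjusted p under 0.05. Of all 4210 named genes 521, 438 and 448 had one, so nothing is read from the list counts. MAP2 is counted in both comparisons with restricted pigs. Their brightest genes differed in low-RFI minus high-RFI pigs by -0.06 (SE 0.13) for DCN and 0.10 (SE 0.13) for SPARC, which encode matrix proteins of fibroblasts. Of the 12 fibroblast and matrix genes 8 were lower in that comparison, with a median of -0.07, and 3 had an unadjusted p under 0.05. Beside them, 1831 of all 4210 named genes were lower and 521 had such a p. FN1, fibronectin, was at -0.69 (SE 0.17, limma adjusted p = 0.12) and FBN1, fibrillin, at -0.60 (SE 0.15, limma adjusted p = 0.14). COL3A1, a collagen, went the other way at 0.26 (SE 0.13, limma adjusted p = 0.44), as did the sign of 4 of the 12 genes in all. FN1, FBN1 and COL3A1 were chosen after their values were seen. The endothelial genes PECAM1 and VWF were at -0.22 (SE 0.18) and -0.38 (SE 0.14), and the macrophage genes CD163 and AIF1 at -0.36 (SE 0.32) and -0.17 (SE 0.18). The slow fibre genes MYH7 and TNNC1 were at 0.13 (SE 0.10) and 0.12 (SE 0.08).

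The genes most like UCHL1 from pig to pig were found among 4124 named genes by Pearson's r over 23 pigs after group means were subtracted. Among the 6 highest were PPP3CC, a catalytic subunit of calcineurin (r = 0.66), SIPA1L1 (0.63), DKC1, dyskerin (0.62), DIO2, a thyroid hormone deiodinase (0.61), and PRIM2, a primase subunit (0.60). Within scan days r was 0.70 and 0.62 for PPP3CC. The 4 probes of SIPA1L1 gave -0.06 to 0.63 and the 2 of PRIM2 gave 0.28 and 0.60. Their own group differences were smaller than that of UCHL1: low-RFI minus restricted was 0.20 (SE 0.12) for PPP3CC, -0.06 (SE 0.11) for SIPA1L1, -0.18 (SE 0.09) for DKC1, -0.23 (SE 0.29) for DIO2 and -0.0033 (SE 0.17) for PRIM2. These are the highest of many correlations that share the arrays and their scaling, and they are given as a description.

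The genes most like MBP by the same measure were FBXW4, an F-box protein (r = 0.74), ANP32B, an acidic nuclear phosphoprotein (0.72), and KRT8, a keratin (0.70). All 4 probes of ANP32B gave r of 0.64 or more and both of KRT8 0.56 or more, while the 4 of FBXW4 ran from -0.25 to 0.79. FBXW4 averaged 4.73 ± 0.10 in low-RFI, 4.54 ± 0.26 in restricted and 4.49 ± 0.21 in high-RFI pigs (SD, n = 7, 8 and 8), with low-RFI highest as for MBP. For ANP32B and KRT8 the order of the groups was another: ANP32B had its highest mean in restricted pigs, at 3.44, and KRT8 in high-RFI pigs, at -1.44.

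The arrays had 41.7% to 79.1% of their probes well above background, with the lowest shares on slide 3 (41.7% to 58.9% on 4 arrays). The medians were 69.3% in low-RFI, 67.3% in restricted and 67.99% in high-RFI pigs. Without slide 3, low-RFI minus restricted was -1.23 for UCHL1 at position 935 and 0.47 for MBP at position 1785. The closest pair of arrays had r = 0.99.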

How the data were processed

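Feature Extraction 10.7.3.1 subtracted background from the spot intensity values and detrended them in each array, per the file headers, with no scaling between arrays. Mean and local background intensity values, per the file headers, were used for normexp only, and the software's flags (other values, per the file headers) for the filters. The deposited log2 values of 26410 probes had a median of 0 on each array and equalled the log2 processed signal minus 1 constant per array. R 2.10.0 is named in the submitters' processing notes. The genome build and the choice of deposited probes are not given in the sources used here.

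For 43803 non-control spots, log2 of the processed signal less the 75th percentile of the array was used, outlier spots were set to missing and spots of 1 probe were averaged. Kept were 27799 of 43603 probes, which 6 or more arrays of 1 group measured well above background. Among the kept probes 473 had a missing value after averaging, 484 values in all. Symbols came from the files and from RefSeq tables for 11988 probes (6284 by accession, 3934 by symbol, 63 by older symbol, 1707 by gene ID). Another 34 were left unnamed, since the symbol from their accession differed from their gene name on the array. A gene stood for its brightest kept probe. One limma 3.58.1 model (R 4.3.3) held the 3 groups, with Benjamini-Hochberg adjustment over all kept probes and a threshold of 0.05. Correlations used 100000 two-sided permutations within groups (numpy 2.4.6, Python 3.11.15). On simulated data, 78 and 74 of 100 probes changed by 1 log2 unit and 32 and 32 of 100 changed by 0.5 were recovered for low-RFI minus high-RFI and minus restricted pigs on 27326 probes, with 9 and 8 false calls.

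The members and lists were chosen with earlier results of these data known. Named were all members with every probe, for each nerve and family list the called genes or the 3 with the smallest p over the groups, the 6 and 3 genes most like UCHL1 and MBP, and the 2 brightest of each other marker list. Some genes that this rule took are left out here, with none in their place. Each array was a separate pig, so p-values cover the spread between pigs, and precision is limited by how many arrays there are. Replicate numbers did not pair the pigs. Other settings were median centring, quantile normalization, the deposited values, normexp with an offset of 50, other dim-probe filters, outlier spots kept, slide, scan day or replicate number as blocks, array weights, trend and robust variance, fits of 2 groups, a threshold of 0.01, the mean of a gene's probes, and leaving out each pig. Normexp on negative controls and leaving out slide 3 or slide 5 were added after seeing the data.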

Additional observations from a re-analysis of the deposited data

Results flagged for a closer look

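In 7 of 108 sets of values of 1 probe in 1 group (6.48%), the highest or lowest pig stood apart from the others by Dixon's test, which chance does in about 1 of 20. Of the 30 sets of UCHL1 and MBP probes 1 was among them: the MBP probe at position 303, at 0.19 in a low-RFI pig on slide 5 with the next pig at -0.36. The other high values were EMP1 at 2.55 and UCHL5 at 4.42 in low-RFI pigs and MYH7 at 9.90 in a restricted pig. The low values were S100A16 at 5.07 in a restricted pig, and CSRP3 at 3.21 and DCN at 6.40 in high-RFI pigs.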

How the results depend on the processing

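The differences of UCHL1 at position 935 changed most with the background correction. Low-RFI minus restricted was -0.39 under normexp and -0.63 under normexp on negative controls, and restricted minus high-RFI was -0.36 and 0.0098. Under the other 14 settings both kept their sign, and low-RFI minus high-RFI ran from -0.75 to -0.53 under all 16. Leaving out 1 pig gave -1.16 to -0.97, 0.35 to 0.53 and -0.72 to -0.53 for low-RFI minus restricted, restricted minus high-RFI and low-RFI minus high-RFI at position 935, and 0.38 to 0.62, -0.20 to 0.04 and 0.31 to 0.54 for MBP at position 1785. The correlation of UCHL1 with MBP was 0.71 under normexp (permutation p = 0.00123) and 0.55 under normexp on negative controls (permutation p = 0.049), against 0.11, and -0.04 to 0.28 without 1 pig. The cause was not tested.

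Counts of called probes moved with many settings. For low-RFI minus high-RFI, restricted minus high-RFI and low-RFI minus restricted, 34, 1 and 45 became 0, 0 and 0 under normexp, 0, 0 and 9 on negative controls, 19, 0 and 25 with slide as a fixed block, 22, 0 and 18 without the filter on dim probes, 52, 0 and 76 with trend and robust variance, 18, 0 and 15 without slide 3, and 14, 0 and 10 at a threshold of 0.01. Low-RFI minus high-RFI and low-RFI minus restricted became 20 and 25 with the deposited values and 103 and 99 with array weights. Restricted minus high-RFI and low-RFI minus restricted became 0 and 23 with median centring, 0 and 25 with 2 groups only, 2 and 98 with slide as a random block and 0 and 20 with the replicate block. Restricted minus high-RFI became 0 with quantile normalization and 3 with scan day as a block, and low-RFI minus high-RFI 18 with the filter on all 23 arrays. Leaving out 1 pig gave 22 to 40, 0 to 7 and 18 to 68. Nerve and family list genes called stayed at 0 in every setting run.

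Pigs with the same replicate number deviated together (r over 0.1) in 2 of 7, 4 of 8 and 1 of 7 pairs, so the numbers were not taken as pairs. With the replicate block, UCHL1 at position 935 was at -1.08 for low-RFI minus restricted. Signal over background limits the Schwann cell and axon lists more than the members. Of their genes with a probe, 2 of 10 and 6 of 8 passed the filter on dim probes. Of the neuromuscular junction and denervation response genes with a probe, 3 of 3 and 7 of 8 passed.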
